A study of Mus musculus with 18 samples.

Results

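The 43 genes described here encode the vacuolar proton pump (V-ATPase) of the lysosome, the soluble hydrolases that it serves with their activator and transfer proteins, lysosomal membrane proteins, and the transcription factors *Tfeb* and *Tfe3*. They were taken by gene symbol from a fixed list, and 37 of the 43 were found among the 20298 genes of the table. These were 15 of 17 V-ATPase genes, 13 of 14 hydrolases, 3 of 4 activator and transfer proteins, 5 of 6 membrane proteins and 1 of 2 transcription factors. *Atp6ap1*, *Atp6ap2*, *Gla*, *Gm2a*, *Lamp2* and *Tfe3* were not analysed here.

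RNA-seq was done on Ly6C+ CCR2+ monocytes of C57BL/6 mice, either wild type (WT) or double knock-in (DKI). DKI mice carry changed N-terminal domains in both STAT5A and STAT5B, so that STAT5 dimers form and tetramers do not, throughout the animal. The labels state no age. Cells were taken untreated (day 0) or as monocyte-derived cells (MDCs) after 3 or 6 days in 20 ng/mL GM-CSF, the cytokine to which both genotypes were exposed, which gave 6 groups of 3 libraries from separate experiments. The study compared the genotypes day by day, and here the pump is set beside the hydrolases and the membrane proteins in each comparison.

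A lysosome is kept acid by the V-ATPase, whose V1 sector in the cytosol splits ATP and whose V0 sector in the membrane carries protons inward. Its hydrolases cut glycans, lipids and proteins at acid pH, and several need an activator such as a saposin or a transfer protein such as NPC2. The factors TFEB and TFE3 bind a short E-box element found in many lysosomal promoters, and macrophages are known for a large and active lysosomal compartment.

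The labels name liver as the tissue, but the 4 hepatocyte markers examined (*Alb*, *Apoa1*, *Ttr*, *Serpina1a*) summed to at most 0.047 RPKM (reads scaled to gene length and library size) in any library, and the study describes bone marrow as the source. The depth of the libraries was estimated at 29.5 to 43.2 M reads. Markers of other cells differed between the genotypes in MDCs. The 6 macrophage markers (*Adgre1*, *Mertk*, *Mrc1*, *Fcgr1*, *Stab1*, *Pf4*) reached a summed level of 259 to 632 RPKM in WT and 1762 to 3800 in DKI libraries of day 3. On day 6 the ranges were 313 to 642 and 1314 to 4211. The 6 dendritic cell markers (*Ccr7*, *Cd209a*, *Ccl17*, *Ccl22*, *Flt3*, *Zbtb46*) reached 4786 to 8836 RPKM in WT and 84.5 to 113 in DKI libraries of day 3. On day 6 their ranges were 3638 to 9911 and 108 to 279. The monocyte markers *Ly6c2*, *Ccr2*, *Csf1r*, *Cx3cr1* and *Itgam* summed to 1602 to 2736 RPKM in WT and 1708 to 2477 in DKI libraries of day 0. They were apart on day 3, at 758 to 1139 and 1394 to 2239, and on day 6, at 602 to 1070 and 1346 to 1596. Of these, *Csf1r* encodes CD115, which the study counts as macrophage-associated, so the sum is not specific to monocytes. In bulk RNA, a different mix of cells and a different RNA content per cell cannot be told apart, and the part of these markers in the results was not tested. Neutrophil and precursor markers (6 genes, *Ngp* and *Mpo* among them) summed to 859 to 1225 RPKM on day 0 and differed widely among MDC libraries, with 4.04 to 515 in WT and 25.4 to 493 in DKI on day 3 and 2.63 to 165 and 6.55 to 507 on day 6. Replicate 1 of each MDC group carries an earlier year in its library name than the rest. Results are therefore also given without replicate 1 of days 3 and 6.

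The E-box is the sequence feature that the listed genes are known for, so the promoters that hold it are shown first. RefSeq promoters (assembly GRCm38.p6) were matched for 30 of the 37 genes, and the 250 bases before the start were searched on both strands. The core CACGTG, which reads the same on both strands, was found in 8 of 30, or 26.7%, against 8.09% of the promoters of 15376 genes of the table. By class it was in 2 of 10 V-ATPase promoters, 4 of 12 hydrolase promoters and 2 of 4 promoters of membrane proteins. Windows of up to 15 bases on either side of the matches, with CACGTG in capitals and written on the strand of the gene, are as follows:
Lamp1, chr8:13159085-13159160, plus strand: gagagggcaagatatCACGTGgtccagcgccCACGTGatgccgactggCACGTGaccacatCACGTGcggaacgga
Mcoln1, chr8:3500433-3500494, plus strand: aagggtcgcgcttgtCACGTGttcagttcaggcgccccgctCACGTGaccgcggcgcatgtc
Lgmn, chr12:102439121-102439156, minus strand: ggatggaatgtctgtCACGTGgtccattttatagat
Naglu, chr11:101070006-101070041, plus strand: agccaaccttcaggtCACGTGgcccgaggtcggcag
Glb1, chr9:114401015-114401050, plus strand: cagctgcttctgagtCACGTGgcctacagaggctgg
Gaa, chr11:119267808-119267843, plus strand: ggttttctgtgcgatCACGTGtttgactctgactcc
Atp6v0b, chr4:117887330-117887380, minus strand: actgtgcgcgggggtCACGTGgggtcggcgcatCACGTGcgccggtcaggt
Atp6v1a, chr16:44139370-44139405, minus strand: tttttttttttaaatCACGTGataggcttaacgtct

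*Lamp1* held 4 copies, from position -61 to position -15 relative to the start, and *Mcoln1* and *Atp6v0b* held 2 each. The longer palindrome TCACGTGA, which contains the core, was in 2 of 30 promoters against 1.23% of all. TTCNNNGAA, the core to which STAT dimers bind, was in 0 of 30 against 7.79%. These are matches of letters in short windows and are not measured binding sites.

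Before GM-CSF, no lysosomal gene was found to differ between the genotypes. Of the 36 tested on day 0, 0 were called different between DKI and WT, against 0% of all 9179 genes tested. A call here and below is an adjusted p under 0.05 (limma, Benjamini-Hochberg adjustment over all genes tested) with a fold change above 1.5 on the scale of log2(RPKM + 1). No member had an unadjusted p under 0.05, whereas 44 of all genes did. The log2 differences lay between -0.27 and 0.06, with a median of -0.04. They were below 0 for 30 of 36 members, against 4778 of all 9179 genes, so a lopsided count of signs also arose where 0 were called. Without WT replicate 1, 22 of 36 were above 0. The DKI and WT libraries overlapped for each of the 36 (1.03% of all genes did not overlap). Replicate 1 was the highest of the 3 libraries for 13 of 15 V-ATPase genes in WT and for 13 of 15 in DKI.

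On day 3 of GM-CSF, DKI MDCs had higher levels of 5 of the 37 members (13.5%) and lower levels of 0. Over all 9740 genes tested, 7.42% were called, 3.21% higher and 4.21% lower. The 5 were *Lamp1*, *Npc1*, *Tpp1*, *Lgmn* and *Tcirg1*: a pump subunit, a pair of proteases and a pair of membrane proteins. The estimate was above 0 for 33 of 37 members against 38.6% of all genes, and the median log2 difference was 0.57 against -0.11 over all genes. All DKI libraries exceeded all WT libraries for 20 members against 13.4% of all genes, and the reverse held for 1 member against 22.9%.

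On day 6, *Lgmn*, *Tcirg1* and *Lamp1* were higher in DKI, 3 of 37 members, and 0 were lower, against 7.54% of all 9842 genes called (2.72% higher and 4.82% lower). That share of 8.11% is close to the background, so the count alone does not set the members apart. The estimate was above 0 for 34 of 37 members against 33.5% of all genes, with a median of 0.75 against -0.17. Groups were apart for 22 members with DKI higher against 10.6% of all genes, and for 3 with DKI lower against 26.6%. Median centring of the libraries changed the split of all calls from 474 lower and 268 higher to 285 lower and 323 higher, and left 34 of 37 members above 0 with a median of 0.89.

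The calls depended on the filter, on single libraries and on the block. Without the filter on low genes, 0 members were called on day 3 or day 6, against 0.685% and 0.187% of all genes. WT and DKI libraries with the same number deviated together on each day, and with the replicate number as a block *Atp6v0d2* alone was called on day 3, and *Atp6v0d2*, *Atp6v0a1* and *Naglu* on day 6, all higher in DKI, against 5.66% and 7.31% of all genes. Without replicate 1, which carries the earlier year, *Atp6v0d2* alone was called on day 3 and 0 members on day 6, against 3.80% and 0.388% of all genes. Leaving out any WT library gave 0 calls on day 3, against 2.02% to 2.22% of all genes. Leaving out DKI replicate 1, 2 or 3 gave 3, 3 and 1, against 7.36%, 4.26% and 4.44%. On day 6 the counts were 0, 5 and 0 without WT replicate 1, 2 or 3, against 1.07%, 5.93% and 1.09% of all genes. They were 1, 8 and 0 without DKI replicate 1, 2 or 3, against 2.56%, 10.0% and 0.912%. In each of these settings the median of the members stayed above 0, between 0.41 and 0.79.

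**Figure D1:**
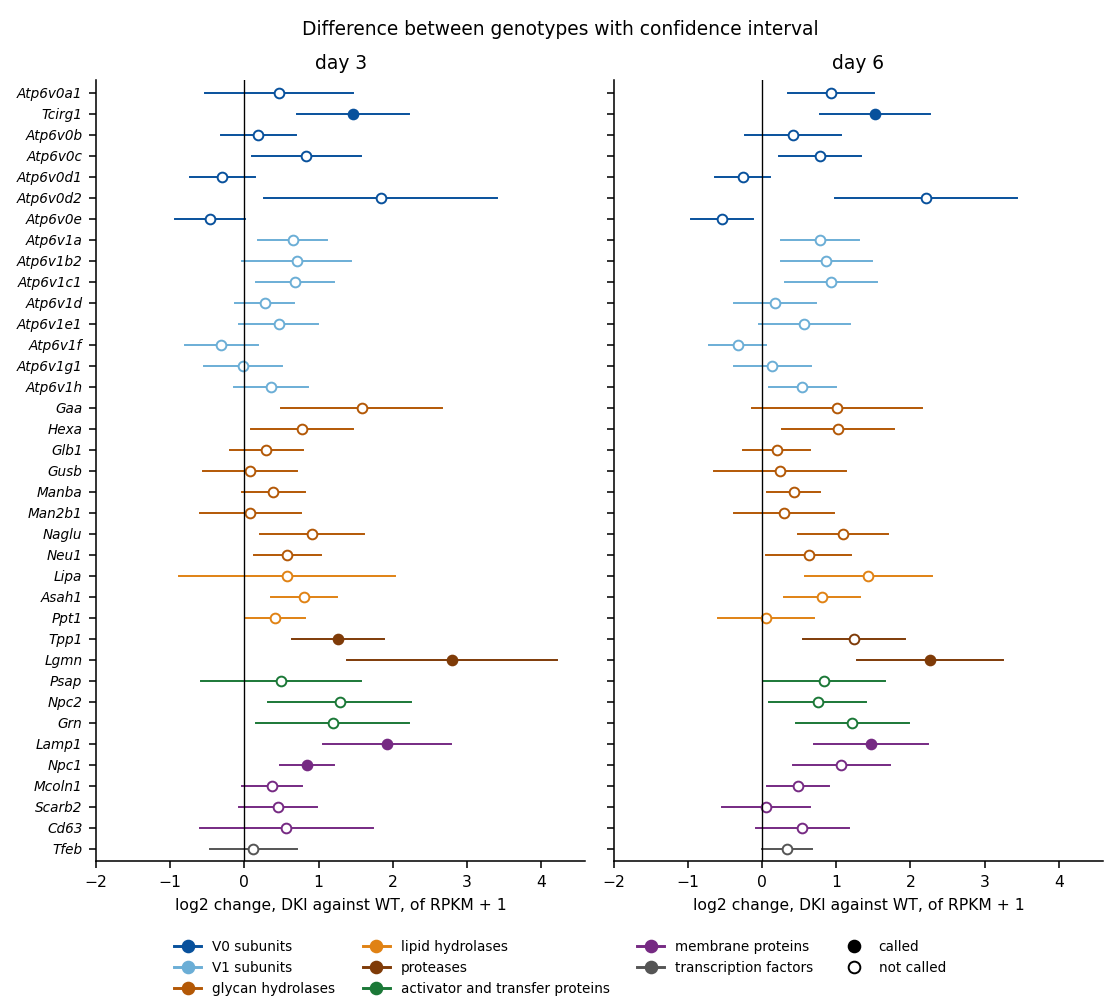
Log2 difference of RPKM + 1 between DKI and WT on day 3 (left) and day 6 (right) for the 37 measured genes, coloured by role, with 95% confidence intervals from limma and n = 3 libraries per group. Most points lie to the right of 0, and filled points mark calls, of which there are 5 in the left panel and 3 in the right.

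Over the first 3 days of GM-CSF, 10 of 13 hydrolases and 0 of 8 subunits of the V1 sector rose in DKI, against 13.1% of all genes. Both counts depended on single libraries. The hydrolase count was 4 without DKI replicate 2 of day 0, and 5 without DKI replicate 1 of day 0, without DKI replicate 3 of day 3 or without the filter on low genes. The V1 subunit *Atp6v1c1* was called higher without DKI replicate 1 of day 0. In WT, 7 members rose and 4 fell, or 29.7% called, against 43.1% of all 9938 genes (20.3% higher and 22.8% lower). In DKI, 17 rose and 1 fell, or 48.6%, against 34.2% of all 9922 genes (13.1% higher and 21.1% lower). Of all genes 2097 fell and 1297 rose in DKI, which became 1622 and 1743 after median centring. Without DKI replicate 2 of day 0, 8 members were called in DKI, against 19.9% of all genes. *Atp6v0d2* is counted among the members that rose in each genotype, although it passed the filter on low values only through day 3. The days did not overlap for 10 members that were higher and 6 that were lower on day 3 in WT, against 28.8% and 32.2% of all genes, and for 22 and 2 in DKI, against 20.6% and 34.6%. Among hydrolases, 3 of 13 rose in WT and 10 of 13 in DKI, with medians of 0.37 and 1.06. Among V-ATPase subunits, 2 of 15 rose in WT and 4 of 15 in DKI, all in the V0 sector, with medians of 0.08 and 0.34. The medians over all genes were -0.05 in WT and -0.16 in DKI. The difference between these changes, tested as an interaction of genotype with day, was called for *Lamp1* and *Tcirg1*, 5.41% of members against 2.91% of all 10212 genes. The call of *Lamp1* was lost in 7 of the 12 fits that left out 1 library and that of *Tcirg1* in 10 of 12. With the replicate number as a block within each day, 10 of 37 members were called, against 10.2% of all genes, and both shares were above those without the block. The members called with the block were *Lamp1*, *Tcirg1*, *Atp6v0d2*, *Atp6v1b2*, *Atp6v1c1*, *Hexa*, *Naglu*, *Asah1*, *Tpp1* and *Npc1*. Without single libraries the interaction was called for 0 to 3 members, against 1.23% to 3.29% of all genes. The genotype comparison of day 3 and both time courses share libraries, so their values for a gene are not independent of each other.

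From day 3 to day 6, 0 members were called in WT, in DKI or as an interaction, against 0% of all genes each time. At an unadjusted p under 0.05 these were 2, 0 and 0 members, against 722 of 9613, 93 of 9540 and 89 of 9985 genes.

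**Figure D2:**
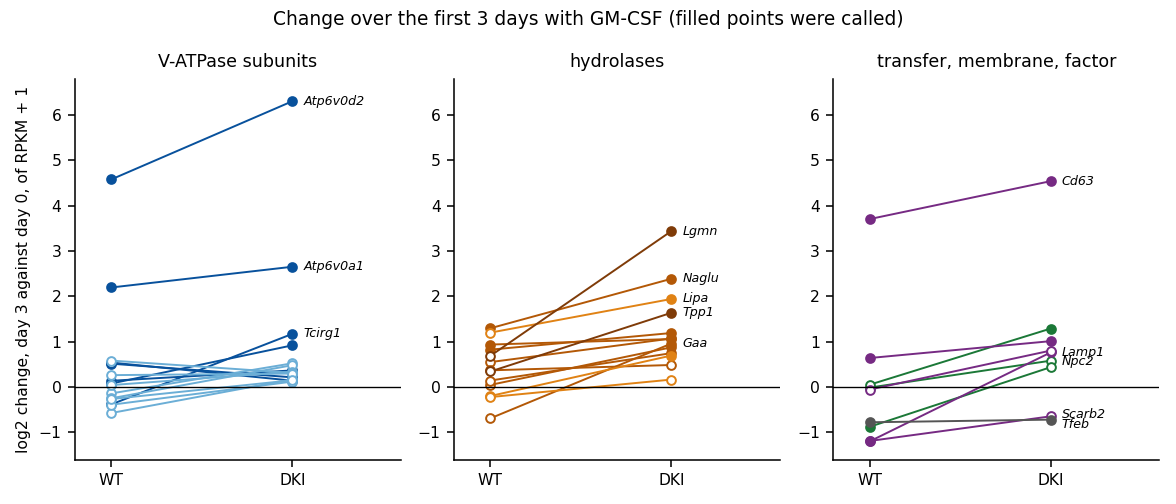
Log2 change of RPKM + 1 from day 0 to day 3 in WT and DKI, with a line per gene and filled points for called changes. The hydrolases (middle) have a median of 0.37 in WT and 1.06 in DKI, while most V-ATPase subunits (left) stay near 0 apart from *Atp6v0d2*, *Atp6v0a1* and, in DKI, *Tcirg1* and *Atp6v0c*.

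Within the V0 sector the largest movement was in the d subunit, which couples the membrane ring to the stalk and exists as a general form, d1, and a form known from osteoclasts and macrophages, d2. *Atp6v0d2* (chr4:19876838-19922566) was nearly silent on day 0, at 1.26, 0.67 and 0.32 RPKM in WT and 1.05, 0.44 and 1.15 in DKI. On day 3 it stood at 15.8, 71.9 and 55.0 in WT and 75.7, 243 and 167 in DKI. On day 6 it stood at 35.0, 144 and 56.3 in WT and 236, 314 and 395 in DKI. DKI libraries were all above WT libraries on both days, and replicate 1 was the lowest of its group each time. On the scale of RPKM + 1, the value of day 3 was 23.9-fold that of day 0 in WT (log2 change 4.58 ± 0.54 SE) and 79.1-fold in DKI (6.31 ± 0.43). Because day 0 lay near or below 1 RPKM, the added 1 makes these folds smaller than those of RPKM itself. They are a description, since the gene passed the filter only through day 3. Between the genotypes it was 3.58-fold higher in DKI on day 3 (adjusted p = 0.141, limma) and 4.63-fold higher on day 6 (adjusted p = 0.0508), which became 0.0224 and 0.0489 with the replicate block. The partner *Atp6v0d1* (chr8:105524461-105566064) lay at 222, 203 and 252 RPKM in WT and 164, 182 and 204 in DKI on day 3, with the groups overlapping by 1 library, and was not called (log2 difference -0.30 ± 0.18). On day 6 it lay at 187, 185 and 177 in WT and 156, 165 and 139 in DKI, so that every DKI library was below every WT library, and was again not called (-0.26 ± 0.15, adjusted p = 0.315). The d2 form made up under 1% of the summed d1 and d2 RPKM on day 0 in both genotypes. Its share was 6.63%, 26.2% and 17.9% in WT and 31.5%, 57.1% and 44.9% in DKI on day 3, and 15.8%, 43.7% and 24.1% against 60.3%, 65.5% and 74.0% on day 6.

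The a subunit, which carries the proton path and steers the pump to an organelle, also changed its makeup. *Tcirg1* (chr19:3896050-3907133) encodes a3, the form of lysosomes and the osteoclast membrane, and lay at 46.0, 48.7 and 55.6 RPKM in WT and 44.0, 44.1 and 52.5 in DKI on day 0. On day 3 it was at 27.2, 52.6 and 38.5 in WT and 132, 122 and 75.6 in DKI, and on day 6 at 28.4, 58.3 and 28.5 in WT and 126, 91.8 and 103 in DKI. The genotypes were thus apart in MDCs and overlapped before. *Tcirg1* was 2.75-fold higher in DKI on day 3 (log2 1.46 ± 0.31, adjusted p = 0.0435) and 2.87-fold on day 6 (1.52 ± 0.31, adjusted p = 0.0401). With the block the adjusted p were 0.0689 and 0.0618, and without replicate 1 the log2 differences were 1.08 and 1.23 (adjusted p = 0.132 and 0.234). It changed by -0.38 on the log2 scale in WT by day 3 (not called) and rose by 1.17 in DKI. The interaction was 1.56 ± 0.36 (adjusted p = 0.0456), and without single libraries its adjusted p lay between 0.0181 and 0.115. It was 0.108 without replicate 1 of day 3, 0.0574 in the fit of all 18 libraries and 0.051 with a pseudocount of 0.1.

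*Atp6v0a1* (chr11:101009422-101063719), the general a1 form, rose in both genotypes. Its levels went from 23.9, 16.7 and 11.2 RPKM to 67.5, 81.5 and 91.0 in WT by day 3, a 4.59-fold rise (adjusted p = 0.00103). In DKI they went from 22.8, 17.0 and 11.9 to 60.2, 194 and 115, a 6.30-fold rise (adjusted p = 0.00692). On day 6 the libraries were at 58.0, 73.5 and 52.7 in WT and 109, 155 and 94.0 in DKI, a gap with no overlap and a log2 difference of 0.93 that was not called (adjusted p = 0.0651) but was with the block (0.0413) and with median centring. *Atp6v0a2*, a relative outside the list, moved the other way between genotypes, at 54.1 RPKM in WT and 23.3 in DKI on day 3 (log2 -1.14 ± 0.23, adjusted p = 0.0393) and called lower on day 6 too. On day 0 *Tcirg1* made up 54.5% to 64.1% of the summed RPKM of the a subunits in WT and 54.6% to 61.4% in DKI. On day 3 its share lay between 17.0% and 30.7% in WT and between 35.6% and 60.8% in DKI, and on day 6 between 19.5% and 33.7% and between 33.8% and 48.7%.

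The other V0 genes were not called between genotypes, except that *Atp6v0c* was called higher in DKI on day 3 with all 18 libraries in 1 fit. *Atp6v0c*, the proteolipid of the ring, rose in DKI by day 3 (log2 0.92 ± 0.21, adjusted p = 0.0181), a call lost in 4 of the 6 fits that left out 1 library. In WT the change was 0.08 ± 0.29 (not called), and the interaction was not called either (0.84 ± 0.37, adjusted p = 0.306). *Atp6v0e*, a small membrane subunit, was the member whose DKI libraries all lay below WT on day 3, at 178, 241 and 207 RPKM against 256, 304 and 302 (log2 -0.47 ± 0.20, adjusted p = 0.192). *Atp6v0b*, another ring subunit with a pair of E-boxes in its promoter, differed by 0.19 ± 0.21 on day 3.

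**Figure D3:**
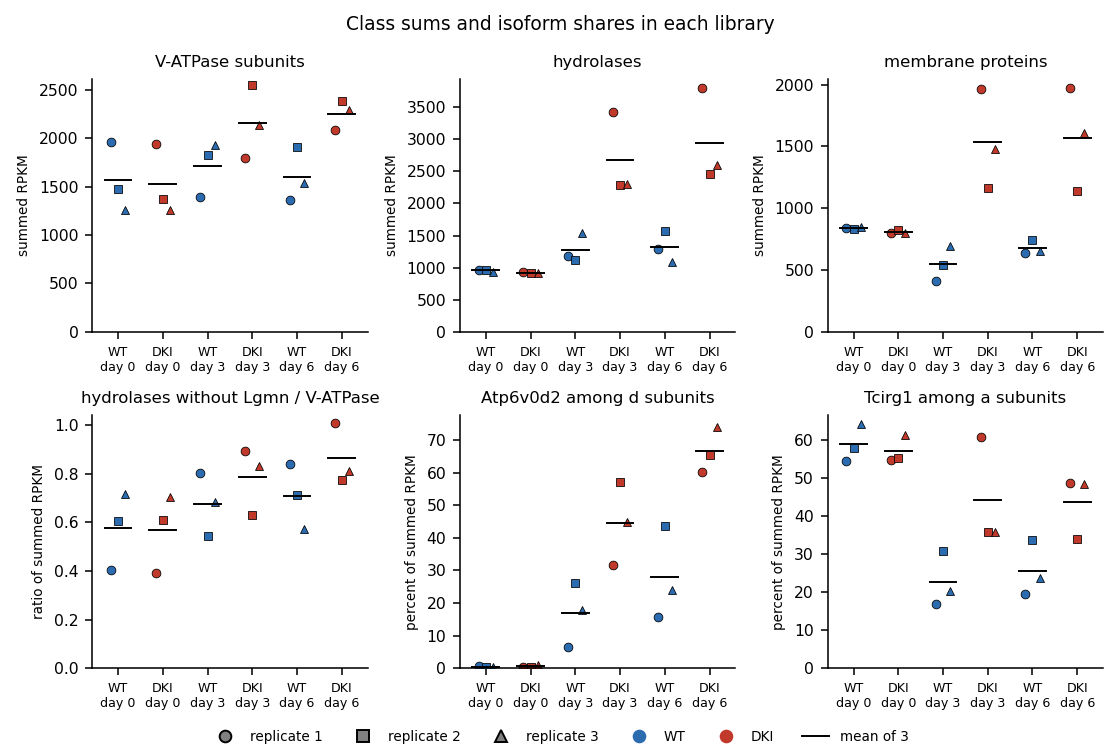
Summed RPKM of V-ATPase subunits, hydrolases and membrane proteins, the ratio of hydrolases without *Lgmn* to V-ATPase, and the shares of *Atp6v0d2* and *Tcirg1* among the d and a subunits, in each of the 18 libraries (symbols: replicate number, bars: mean of 3). The *Atp6v0d2* share is under 1% on day 0 and between 60.3% and 74.0% in DKI on day 6, while the ratio overlaps between the genotypes on day 3.

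None of the 8 V1 subunits was called in WT or DKI over time, or between genotypes on any day, but a few were called under other settings. *Atp6v1f* was called higher in WT by day 3 with a pseudocount of 0.1, with median centring, with quantile normalization, with no limit on the fold change and without WT replicate 1 of day 3. *Atp6v1a* was called higher in DKI by day 3 with median centring and *Atp6v1c1* without DKI replicate 1 of day 0. Between genotypes on day 6, *Atp6v1a* was called in the fit of all 18 libraries and both without WT replicate 2, and with the block *Atp6v1b2* and *Atp6v1c1* were called in the interaction. In WT their log2 changes by day 3 lay between -0.57 and 0.58, and in DKI between 0.12 and 0.52. The 2 with the largest change in WT went opposite ways. *Atp6v1b2*, the nucleotide-binding B subunit of myeloid cells, lay at 328, 238 and 172 RPKM on day 0 and 115, 183 and 194 on day 3 in WT, and at 320, 222 and 176 and then 192, 340 and 272 in DKI. *Atp6v1f*, a stalk subunit, lay at 82.6, 84.8 and 72.1 and then 98.8, 117 and 148 in WT, and at 86.7, 74.9 and 71.6 and then 86.0, 96.7 and 108 in DKI. Between genotypes, DKI libraries lay above WT libraries for 5 V1 genes on day 3 and 4 on day 6, against 13.4% and 10.6% of all genes. These included *Atp6v1a* and *Atp6v1c1* on both days with log2 differences of 0.65 and 0.68 on day 3. For *Atp6v1f* they lay below on day 6 (log2 -0.33 ± 0.16, adjusted p = 0.231). The estimates of the 15 pump subunits lay between -0.47 and 1.84 on day 3, and between -0.54 and 2.21 at the later time.

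Among the 8 glycan hydrolases, 3 rose in WT by day 3 (*Naglu*, *Gusb* and *Glb1*) and 6 rose in DKI (those and *Hexa*, *Manba* and *Neu1*), against 20.3% and 13.1% of all genes called higher. *Hexa*, *Manba* and *Neu1* each lost the call in DKI in 4 of the 6 fits that left out 1 library, and *Glb1* lost that in WT in 3 of 6. *Naglu* (chr11:101070090-101077672), which removes N-acetylglucosamine from heparan sulphate, went from 9.14, 8.76 and 11.2 RPKM to 27.4, 18.9 and 30.7 in WT, a 2.46-fold rise (log2 1.30 ± 0.21, adjusted p = 0.00279). In DKI it went from 7.92, 8.01 and 9.34 to 69.6, 36.5 and 44.2, a 5.24-fold rise (2.39 ± 0.25, adjusted p = 0.00185). DKI exceeded WT without overlap on day 3 and, at 85.3, 48.2 and 63.6 against 35.6, 29.5 and 24.2 RPKM, on day 6, where the 2.13-fold difference had an adjusted p of 0.0508 (0.0454 with the block). *Gusb*, beta-glucuronidase, rose in both genotypes and was not called between them, going from 98.4, 110 and 100 RPKM to 248, 170 and 183 in WT (log2 0.94, adjusted p = 0.00545) and from 95.0, 102 and 101 to 156, 263 and 219 in DKI (1.06, adjusted p = 0.015). Its difference on day 3 was 0.07, with a 95% interval from -0.56 to 0.71.

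*Gaa*, the acid alpha-glucosidase that breaks down glycogen, was not called in any comparison with all libraries of the groups compared. Without DKI replicate 2 of day 3 it was called between genotypes on day 3, in DKI over time and in the interaction (adjusted p = 0.0383, 0.0114 and 0.0128). Without DKI replicate 2 of day 6 it was called on day 6 (0.0222), and with all 18 libraries in 1 fit it was called on day 3. Without WT replicate 3 of day 3 it was called lower in WT over time. It lay at 12.8, 13.5 and 15.4 RPKM on day 0 and 6.18, 6.97 and 12.7 on day 3 in WT, so that every day 3 library was below every day 0 library. In DKI it lay at 12.5, 13.6 and 13.5 and then 43.02, 13.7 and 31.6, so that every day 3 library was above, replicate 2 by the narrowest margin. The interaction was 1.65 ± 0.50 (adjusted p = 0.124). *Hexa*, the alpha subunit of hexosaminidase, was 1.72-fold higher in DKI on day 3 and 2.03-fold on day 6, with no overlap and adjusted p of 0.148 and 0.0919. *Man2b1*, the lysosomal alpha-mannosidase, differed by 0.08 and 0.30 on the log2 scale, within the spread of the replicates.

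The 3 lipid hydrolases were not called between genotypes on either day. Under other settings, *Asah1* was called higher in DKI on day 3 with quantile normalization and on both days with all 18 libraries in 1 fit, and *Lipa* on day 6 without WT replicate 2. *Lipa*, acid lipase, which frees cholesterol and fatty acids from lipoprotein lipids, lay at 44.1, 108 and 77.3 RPKM on day 0 and 81.1, 211 and 269 on day 3 in WT, and at 39.3, 88.4 and 74.6 and then 120, 387 and 331 in DKI. Replicate 1 was the lowest in each of these groups. The rise passed the test in DKI (log2 1.94 ± 0.51, adjusted p = 0.0273) and not in WT (1.20 ± 0.50, adjusted p = 0.0852), where it did without replicate 1 of day 3 (0.0169). The call in DKI was kept in 1 of the 6 fits that left out 1 library (adjusted p up to 0.0803) and was lost without the filter on low genes. The interaction was 0.74 ± 0.79 (adjusted p = 0.725). On day 6 *Lipa* was at 118, 301 and 149 in WT and 430, 468 and 525 in DKI, apart by 2.70-fold (adjusted p = 0.061). *Asah1*, acid ceramidase, was at 134, 134 and 156 RPKM in WT and 280, 212 and 254 in DKI on day 3, apart by 1.75-fold with an adjusted p of 0.0518 (0.0855 with the block). *Ppt1*, which removes palmitate from proteins, was not called: 80.3, 79.5 and 81.0 RPKM on day 0 and 62.1, 66.2 and 78.9 on day 3 in WT, against 81.1, 79.6 and 85.7 and then 103, 85.9 and 88.9 in DKI (interaction 0.39 ± 0.18, adjusted p = 0.339).

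Both proteases were higher in DKI, and *Lgmn* had the largest genotype difference of the members on both days with all libraries, whereas without replicate 1 that of *Atp6v0d2* was larger on day 6 (log2 1.95 against 1.68). *Lgmn* (chr12:102394082-102439728) encodes legumain, which cuts after asparagine and matures cathepsins. On day 0 its libraries spread widely with the replicate number in the same order in both genotypes, at 170, 73.2 and 35.0 RPKM in WT and 164, 72.9 and 40.7 in DKI. On day 3 it lay at 72.7, 116 and 223 in WT and 1814, 690 and 519 in DKI, and on day 6 at 154, 205 and 208 in WT and 1691, 596 and 734 in DKI. Replicate 1 was the highest DKI library on both days, and the lowest DKI library was above the highest WT library. The difference was 6.98-fold on day 3 (log2 2.80 ± 0.59, adjusted p = 0.0415) and 4.82-fold on day 6 (2.27 ± 0.41, adjusted p = 0.0303). It was 1.89 and 1.68 on the log2 scale without replicate 1 (adjusted p = 0.0749 and 0.112), and the adjusted p with the block were 0.0941 and 0.0533. *Lgmn* rose 10.9-fold in DKI by day 3 (adjusted p = 0.00913) and was not called in WT (log2 0.69 ± 0.62).

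*Tpp1* (chr7:105744811-105752282), tripeptidyl peptidase 1, lay at 36.3, 27.5 and 29.0 RPKM in WT and 35.7, 25.9 and 29.0 in DKI on day 0. On day 3 it lay at 32.5, 35.0 and 53.0 in WT and 117, 74.5 and 99.7 in DKI, and on day 6 at 45.2, 64.3 and 45.2 in WT and 164, 84.2 and 128 in DKI. The genotypes did not overlap on either day, and replicate 2 was the lowest in DKI. It was 2.40-fold higher on day 3 (log2 1.26 ± 0.26, adjusted p = 0.0394, 0.0590 with the block, 0.130 without replicate 1) and 2.35-fold on day 6 (adjusted p = 0.0511).

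**Figure D4:**
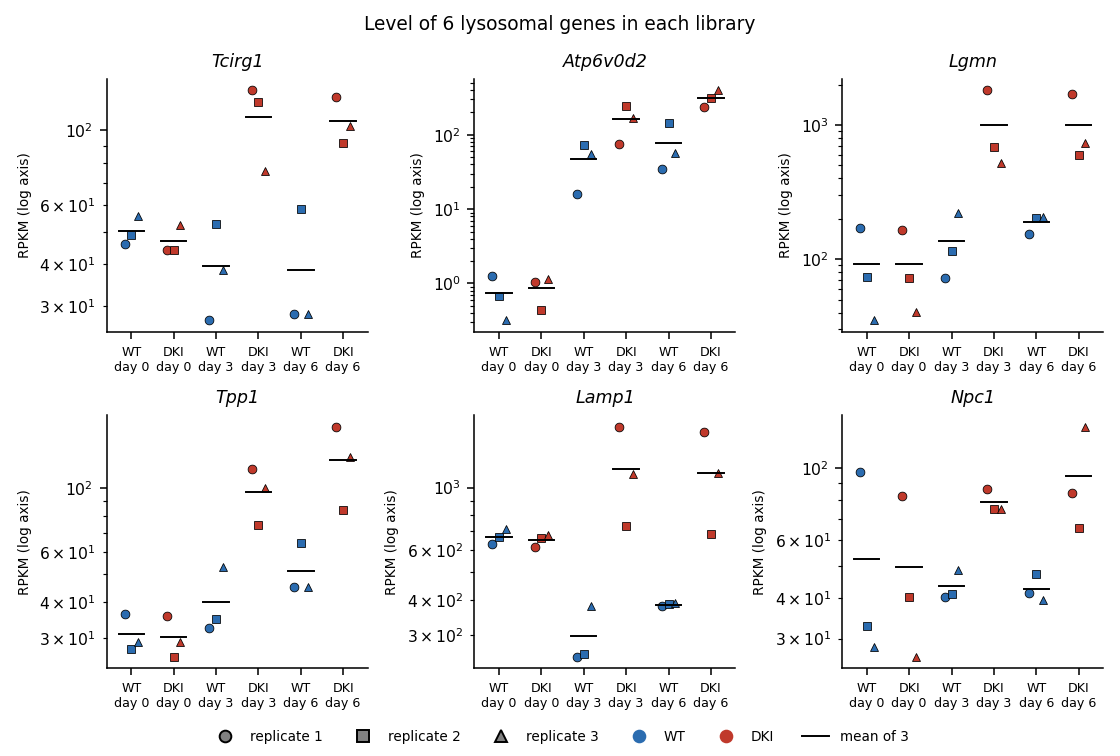
RPKM on log axes of *Tcirg1*, *Atp6v0d2*, *Lgmn*, *Tpp1*, *Lamp1* and *Npc1* in each library by group (symbols: replicate number, bars: mean of 3). The genotypes coincide on day 0 and are apart on days 3 and 6, with *Lgmn* at 519 to 1814 RPKM in DKI on day 3 against 72.7 to 223 in WT.

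Of the activator and transfer proteins, 0 of 3 were called between genotypes. With all 18 libraries in 1 fit, *Npc2* was called higher in DKI on day 3 and *Grn* on both days, and *Grn* was also called on day 6 with quantile normalization and without DKI replicate 2. The most abundant member was *Psap*, the precursor of the saposins that activate sphingolipid hydrolases. It averaged 3178 ± 1255 RPKM (SD, n = 3) in WT and 4397 ± 1403 in DKI on day 3, with overlap, and 3476 ± 543 and 6418 ± 2127 on day 6, without. *Npc2*, which hands cholesterol to NPC1, lay at 338, 340 and 323 RPKM on day 0 in WT and fell to 166, 163 and 220 by day 3 (log2 -0.88 ± 0.17, adjusted p = 0.00528). In DKI it lay at 332, 363 and 290 and then 814, 360 and 297, where replicate 1 stood apart and the change was not called (0.44 ± 0.39). DKI was above WT without overlap on day 3 (2.44-fold, adjusted p = 0.110) and on day 6 (1.68-fold, adjusted p = 0.134). *Grn*, progranulin, which is processed in lysosomes, lay at 517, 293 and 531 RPKM in WT and 1720, 748 and 749 in DKI on day 3. It had been at 448, 412 and 391.7 and at 437, 423 and 355 on day 0, and it rose in DKI (log2 1.29 ± 0.37, adjusted p = 0.0353), a call lost in 3 of the 6 fits that left out 1 library. In WT the change was 0.05 ± 0.25 (not called), and the interaction was not called either (1.24 ± 0.47, adjusted p = 0.218).

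The estimates of all 5 membrane proteins lay above 0 between genotypes on days 3 and 6, of which *Lamp1* and *Npc1* were called on day 3 and *Lamp1* on day 6. In WT over the first 3 days, *Mcoln1* and *Cd63* rose while *Lamp1* and *Scarb2* fell. *Lamp1* (chr8:13159161-13175338), an abundant glycoprotein that lines the lysosome and whose promoter holds the 4 E-boxes shown above, was at 629, 668 and 712 RPKM in WT and 613, 661 and 677 in DKI on day 0. By day 3 it had fallen to 251, 257 and 381 in WT (log2 -1.20 ± 0.20, adjusted p = 0.0034) and stood at 1646, 730 and 1120 in DKI, above every day 0 library but not called (0.76 ± 0.33, adjusted p = 0.113). On day 6 it was at 380, 385 and 388 in WT and 1574, 687 and 1125 in DKI. The DKI level was 3.79-fold higher on day 3 (log2 1.92 ± 0.36, adjusted p = 0.0308, 0.0542 with the block, 0.0845 without replicate 1) and 2.77-fold higher on day 6 (1.47 ± 0.32, adjusted p = 0.0453, 0.0574 with the block, 0.221 without replicate 1). The interaction by day 3 was 1.96 ± 0.39 (adjusted p = 0.0238, 0.0223 with the block, 0.0381 without replicate 1 of day 3, 0.0895 without the filter on low genes). In the 12 fits that left out 1 library its adjusted p lay between 0.00574 and 0.0638.

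*Npc1*, the membrane protein that exports cholesterol, had the smallest standard error of the 5 called genes on day 3, at 40.3, 41.1 and 48.7 RPKM in WT and 86.5, 74.8 and 74.7 in DKI. It was 1.80-fold higher in DKI (log2 0.85 ± 0.15, adjusted p = 0.0277, 0.0646 with the block, 0.0737 without replicate 1) and 2.10-fold higher on day 6 (adjusted p = 0.0643). Before GM-CSF its replicate 1 was far above the others in both genotypes, at 97.0, 32.8 and 28.3 in WT and 82.3, 40.3 and 26.4 in DKI. *Scarb2*, the receptor that carries glucocerebrosidase to lysosomes, fell in WT from 86.8, 113 and 95.8 RPKM to 39.8, 38.6 and 49.7 (log2 -1.19 ± 0.17, adjusted p = 0.00174), and in DKI it lay at 83.8, 109 and 85.6 and then 75.9, 47.3 and 55.6 (-0.65 ± 0.23, adjusted p = 0.0672). It was called lower in DKI too without replicate 1 of day 3 (-0.83, adjusted p = 0.018) and with all 18 libraries in 1 fit.

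*Cd63*, a tetraspanin of late endosomes and secreted vesicles, rose in both genotypes, from 15.4, 10.3 and 5.48 RPKM to 68.2, 193 and 198 in WT and from 12.8, 7.91 and 4.57 to 139, 294 and 209 in DKI. These were rises of 13.0-fold (adjusted p = 0.00143) and 23.3-fold (adjusted p = 0.00111), and the genotypes overlapped on both days. *Mcoln1*, the calcium channel of lysosomes, rose 1.56-fold in WT and 2.02-fold in DKI (adjusted p = 0.0204 and 0.00541, the first lost in 2 of 6 fits that left out 1 library), with a genotype difference of 0.37 ± 0.17 on day 3 that was not called.

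*Tfeb*, the listed regulator of these genes, was called lower in both genotypes by day 3 and was not called between them on any day. It lay at 24.9, 20.3 and 25.3 RPKM in WT and 24.9, 24.7 and 23.7 in DKI on day 0, and at 14.0, 10.1 and 16.3 and at 10.9, 15.2 and 18.2 on day 3. The fall was -0.78 ± 0.20 in WT (adjusted p = 0.0173) and -0.72 ± 0.21 in DKI (adjusted p = 0.0364), and the call in DKI was lost in 5 of the 6 fits that left out 1 library. It was also lost with median centring, with quantile normalization, with the replicate block, without the filter on low genes and without replicate 1 of day 3. The call in WT was lost without the filter. On day 3 the genotype difference was 0.12 with a 95% interval from -0.47 to 0.71. On day 6 all 3 DKI libraries, at 15.2, 16.9 and 14.1, lay above WT at 11.6, 11.1 and 13.4 (log2 0.33 ± 0.14, adjusted p = 0.181).

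**Figure D5:**
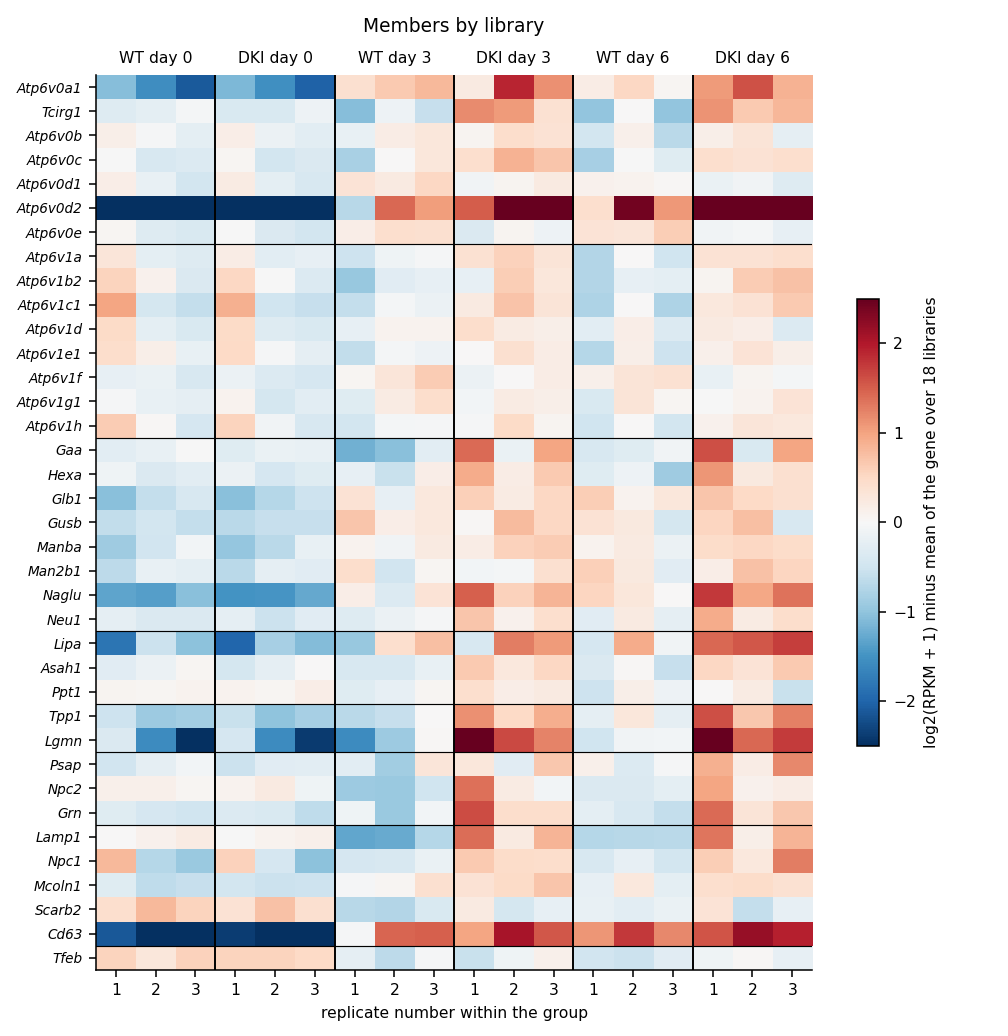
Log2(RPKM + 1) of each member minus its mean over the 18 libraries (colour scale limited to 2.5 on either side), in order of role, with libraries by group and replicate number. All 3 DKI columns are redder than all 3 WT columns on day 3 for 8 of 15 V-ATPase genes, 8 of 13 hydrolases and 2 of 5 membrane proteins. On day 6 this holds for 8, 7 and 3. The shares of all genes are 13.4% on day 3 and 10.6% on day 6. *Atp6v0d2* and *Cd63* are blue on day 0, and replicate 1 of day 0 is the reddest for 13 of 15 V-ATPase genes in each genotype.

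Summed by class, DKI and WT libraries overlapped on day 3 for the pump and did not for the hydrolases and the membrane proteins. The overlap for the pump came from DKI replicate 1. By replicate number the pump sum was 1390, 1827 and 1927 in WT and 1794, 2548 and 2133 in DKI. Gene by gene, DKI libraries were all above WT libraries on day 3 for 8 of 15 pump genes. The same held for 8 of 13 hydrolases and 2 of 5 membrane proteins, against 13.4% of all genes. The median log2 differences were 0.46, 0.58 and 0.57. The summed RPKM of the 15 V-ATPase genes averaged 1715 ± 285 (SD, n = 3) in WT and 2158 ± 378 in DKI on day 3, with overlap, and 1603 ± 277 and 2254 ± 157 on day 6, without. The 13 hydrolases summed to 1280 ± 228 and 2668 ± 650 on day 3 and to 1317 ± 238 and 2946 ± 738 on day 6, with no overlap on either day. Without *Lgmn* they summed to 1143 ± 162 and 1661 ± 99.1 on day 3, still without overlap. The 5 membrane proteins, of which *Lamp1* is the most abundant, summed to 552 ± 142 and 1539 ± 403 on day 3 and to 682 ± 55.7 and 1571 ± 418 on day 6, again apart. On day 0 these sums were 1565 and 1524 for the pump, 956 and 920 for the hydrolases and 842 and 811 for the membrane proteins in WT and DKI. The hydrolases stood to the pump as 0.754 ± 0.129 in WT and 1.29 ± 0.54 in DKI on day 3, with no overlap. Without *Lgmn* it was 0.677 ± 0.129 and 0.785 ± 0.139, and the libraries overlapped. By replicate number it was 0.803, 0.545 and 0.683 in WT and 0.895, 0.629 and 0.832 in DKI, higher in DKI each time. On day 6 the ratio without *Lgmn* overlapped too, at 0.708 ± 0.133 and 0.866 ± 0.126. By replicate number it was then 0.839, 0.714 and 0.573 in WT and 1.01, 0.776 and 0.812 in DKI, again higher in DKI each time. These sums weigh each gene by its level, were given no test, and moved within DKI with the replicate: on day 3 replicate 1 was the highest of 3 for 9 of 13 hydrolases and the lowest for 12 of 15 V-ATPase genes.

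Among other lysosomal genes, calls went in both directions. Of 93 other lysosomal genes measured, 83 were tested on day 3, of which 12 were higher and 4 lower in DKI (19.3% called, against 7.42% of all genes), and 84 were tested on day 6, of which 9 were higher and 5 lower (16.7%, against 7.54%). The largest called differences of day 3 were in *Rogdi*, a partner of the V-ATPase assembly complex, at 15.1 RPKM in DKI against 95.1 in WT (log2 -2.55 ± 0.34), and in *Naaa*, an amidase of N-acylethanolamines, at 92.0 against 502 (-2.41 ± 0.38). Then came *Hgsnat*, which acetylates heparan sulphate ahead of *Naglu*, at 140 against 36.6 (1.86 ± 0.36), *Galc*, galactosylceramidase, at 23.1 against 7.38 (1.57 ± 0.27), and *Cd68*, a macrophage sialomucin, at 876 against 310 (1.56 ± 0.34). On day 6 they were *Rogdi* (-2.49 ± 0.32), *Cd68* (1.80 ± 0.24), *Mitf* (1.52 ± 0.34) and *Fnip2*, a folliculin partner in nutrient sensing (1.49 ± 0.30). The hyaluronidase gene *Hyal1*, at 0.339 RPKM in WT and 3.15 in DKI, was among the largest too but passed the filter only through DKI. *Mitf* and *Tfec* belong to the same factor family as *Tfeb*. *Mitf* averaged 31.4 RPKM in DKI and 10.6 in WT on day 6 (adjusted p = 0.0472). *Tfec*, named after its values were seen, averaged 64.1 and 24.2 on day 3 (log2 1.41 ± 0.27, adjusted p = 0.032).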

How the data were processed

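Libraries were made from polyadenylated RNA of 18 samples in 6 groups of 3. Per the labels and the study's methods, the authors aligned reads to mm10 with Subread, counted them per RefSeq gene with featureCounts and deposited RPKM values per gene and library. Versions, strand setting and treatment of multi-mapping reads are not given in the sources used here. Because RPKM values are not counts, no count test was run.

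Genes with a mean above 2 RPKM in at least 1 group of a comparison were tested on log2(RPKM + 1), a scale that understates changes of low genes, with limma 3.58.1 (R 4.3.3) with an intensity trend. A call needed a Benjamini-Hochberg adjusted p under 0.05 over all genes tested and a fold change above 1.5. Folds in the report are of RPKM + 1. All p-values in the report come from these fits, and ± in them is the standard error. The alternatives were a pseudocount of 0.1, no filter, median centring, quantile normalization, all 18 libraries in 1 fit, a replicate block, no fold limit and leaving out each library. The fit without replicate 1 of days 3 and 6 was chosen after seeing the data. The fits were tested on simulated data.

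Depth was estimated from the steps between low RPKM values of 1162 genes at 29.5 to 43.2 M reads (median 36.5), and 62 of 64 other low values came out as whole reads within 5%.

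Replicate numbers in the labels were checked for pairing by correlating the deviations of same-numbered libraries from their group means across genes, which are not independent replicates. They ranged from 0.696 to 0.870 between WT and DKI on day 0, at day 3 between 0.164 and 0.374, and at day 6 between 0.347 and 0.420. Between days 3 and 6 of a genotype they were 0.126 to 0.746. Between days 0 and 3 they ranged from -0.213 to 0.180, and the numbers were not taken as pairs there.

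The members and gene lists were chosen with earlier results of these data known. Of the 6 monocyte markers listed, 1 is not reported here and was left out of their sum. Libraries are written out for genes called between genotypes, for the a and d subunit pairs, for *Tfeb* and for the 2 members per role with the largest change by day 3 in WT. Of other lysosomal genes the 5 largest called differences of each day are named. Promoters came from RefSeq (GRCm38.p6), 250 bases before the start. Figures and sums were made with Python 3.11.15, numpy 2.4.6, pandas 2.3.3 and matplotlib 3.10.9.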

Additional observations from a re-analysis of the deposited data

Results flagged for a closer look

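The change from day 0 to day 3 differed between DKI and WT in the interaction test of limma for *Tcirg1*, by 1.556 on the log2 scale (adjusted p = 0.0456), and for *Lamp1*, by 1.963 (adjusted p = 0.0238). The call was lost in 10 and 7 of the 12 fits that left out 1 library, and both were lost without the filter on low genes. *Gaa* and *Ppt1* drew attention because every WT library of day 3 lay below every WT library of day 0, while every DKI library of day 3 lay above every DKI library of day 0. The margins were narrow. The closest values of days 3 and 0 were 12.69 and 12.81 RPKM in WT and 13.67 and 13.64 in DKI for *Gaa*. For *Ppt1* they were 78.86 and 79.45 in WT and 85.93 and 85.70 in DKI. Of all genes, 32.2% were lower without overlap in WT and 20.6% higher in DKI, and the share with both was not counted. Their interactions were 1.65 (adjusted p = 0.124) and 0.3861 (adjusted p = 0.339) and did not pass the test.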

How the results depend on the processing

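Of 37 members tested, 5 were called on day 3 and 3 on day 6 between genotypes, 18 from day 0 to day 3 in DKI and 2 in the interaction of genotype with day. The shares of all genes were 7.42%, 7.54%, 34.2% and 2.91%. Without the filter on low genes the member counts became 0, 0, 11 and 0, against 0.685%, 0.187%, 10.8% and 0.818% of all genes. With all 18 libraries in 1 fit they were 11 on day 3, 11 on day 6 and 1 in the interaction, against 13%, 14.8% and 2.51% of all genes. Median centring and quantile normalization gave 5 and 6 on day 6, against 6.18% and 6.62% of all genes. A pseudocount of 0.1 gave 1 for the interaction, against 2.38%. With the replicate block 1 member was called on day 3 and 10 in the interaction, against 5.66% and 10.2% of all genes. Without replicate 1 of days 3 and 6, 1, 0 and 1 were called on day 3, on day 6 and in the interaction, against 3.8%, 0.388% and 2.82%. Leaving out 1 library gave 0 to 3 calls on day 3, 0 to 8 on day 6, 8 to 17 in DKI over time and 0 to 3 in the interaction. The shares of all genes in these fits were 2.02% to 7.36%, 0.912% to 10%, 19.9% to 34.4% and 1.23% to 3.29%. The cause of these differences was not tested. Over all genes, 723 calls on day 3 became 139 without the filter, 1350 in the fit of all 18 libraries and 369 without replicate 1, and 742 calls on day 6 became 38, 1545 and 38. Apart from fits that left out 1 library, among 2620 values of single members 2519 kept their side of the threshold, 48 lost the threshold, 53 gained it and 0 that were called changed sign. Median centring moved the median of all genes on day 6 from -0.17 to -0.02. The replicate block changed no other count of members called by over 1.5 times. *Atp6v0d2* was below the filter on day 0, so its genotype difference there was not tested.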
